A study of Homo sapiens with 2 samples.

Results

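The aldo-keto reductases (AKR) are a family of enzymes, mostly of the cytosol, that use NADPH, in most cases to reduce aldehydes and ketones to alcohols. The 10 members considered were AKR1A1, AKR1B1, AKR1B10, AKR1C1, AKR1C2, AKR1C3, AKR1C4, AKR1D1, AKR7A2 and AKR7A3, and every probe set annotated to one of them was taken, including a probe set shared by AKR1C1 and AKR1C2. This gave 17 probe sets of 54675 on the array, for 8 of the 10 members. AKR1A1, an aldehyde reductase, and AKR1B1, aldose reductase, had no probe set named in the annotation used and were not analysed here. The 8 measured members stand among 19775 genes with a probe set of their own.

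The cells were HepG2, an established line from a human liver carcinoma. Treated cells received an ethanolic extract of Padma 28 (PADMA28 in the labels), an Indo-Tibetan preparation of many herbs, at 218 μg/ml, and control cells received its solvent, 0.9% ethanol (EtOH), both for 18 h. RNA came from 3 pooled cultures per treatment and went on 1 Affymetrix array each. These arrays therefore give no replicate, error or test across samples. On them, an effect of the extract and a difference between the pools of cultures cannot be told apart. The study also measured AKR1B10 and, with shared primers, AKR1C1 to AKR1C4 by qPCR in independent experiments, which are not reported here. The labels and the methods of the study give different flask sizes and times in culture before treatment.

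In the liver, aldo-keto reductases serve both the defence against reactive carbonyls and the metabolism of steroids. AKR1B10 reduces retinaldehyde and aldehydes from lipid peroxidation, and the AKR7A enzymes reduce the dialdehyde of aflatoxin. The AKR1C enzymes reduce or oxidise hydroxyl and keto groups of steroid hormones, prostaglandins and polycyclic hydrocarbons, and AKR1D1 with AKR1C4 shapes the steroid nucleus of bile acids. Several members, above all AKR1B10 and the AKR1C genes, are known targets of Nrf2, which binds antioxidant response elements (ARE).

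Levels are given as the deposited log2 values, which the authors made with GCRMA. Differences are Padma 28 minus EtOH, so that 1 is 2-fold and 2 is 4-fold higher with Padma 28. The limit for a signal well above background lay 2 log2 units over the most frequent value of the array, at 4.35 for Padma 28 and 4.25 for EtOH. The suffix _x_at marks probe sets with probes that may also match other genes, and _s_at marks those that match several transcripts. The cells expressed liver lineage markers, with all 9 measured markers (among them albumin and alpha-fetoprotein) above background on both arrays and differences of -0.55 to -0.046. Of the 10 stromal, endothelial and leukocyte markers measured, 3 were above background, COL1A1, PECAM1 and LYZ, with differences of -0.033, 0.32 and -0.14. The level of LYZ was high, at 14.23 with Padma 28 and 14.36 with EtOH. COL1A2, DCN, LUM, VWF, CDH5, PTPRC and CD3E were below background on both arrays. In RNA from whole cultures, a change in the share of cells that express a gene and a change in the RNA per cell cannot be told apart.

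The region just before a gene's start is where the general transcription machinery and many regulators bind, and the 4 AKR1C genes, which lie in a cluster on chromosome 10, share much of it. RefSeq windows (GRCh38.p14) of 250 bases before and 50 after the start were found for 9 members, all but AKR1B10. The windows of AKR1C1 (chr10:4963165-4963464, + strand), AKR1C2 (chr10:5003808-5004107, - strand), AKR1C3 (chr10:5048531-5048830, + strand) and AKR1C4 (chr10:5196587-5196886, + strand) are shown because the first 3 genes were higher with Padma 28 and the last was below background. Those of AKR1D1 (chr7:138076209-138076508, + strand) and AKR7A2 (chr1:19312097-19312396, - strand) are shown as members with small differences. Each is given in its gene's direction. Capitals mark matches on either strand to a loose form of the ARE core, TGANNNNGC, or to the CCAAT box. The CCAAT box, CCAAT, reads ATTGG on the other strand. AKR1C3 and AKR7A2 each have a further RefSeq start with a window of its own, which is not printed.
AKR1C1: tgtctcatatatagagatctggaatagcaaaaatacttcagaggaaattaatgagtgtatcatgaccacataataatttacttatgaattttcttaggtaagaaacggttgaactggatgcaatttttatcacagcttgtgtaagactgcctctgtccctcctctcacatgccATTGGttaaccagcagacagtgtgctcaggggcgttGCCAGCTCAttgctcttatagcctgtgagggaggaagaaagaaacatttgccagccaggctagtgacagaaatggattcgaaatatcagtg
AKR1C2: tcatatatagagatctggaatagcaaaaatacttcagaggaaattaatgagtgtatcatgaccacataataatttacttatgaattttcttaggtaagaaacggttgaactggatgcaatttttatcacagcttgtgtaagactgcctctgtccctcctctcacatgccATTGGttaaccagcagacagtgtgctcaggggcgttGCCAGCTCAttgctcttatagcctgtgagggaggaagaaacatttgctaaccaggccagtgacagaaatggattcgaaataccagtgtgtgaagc
AKR1C3: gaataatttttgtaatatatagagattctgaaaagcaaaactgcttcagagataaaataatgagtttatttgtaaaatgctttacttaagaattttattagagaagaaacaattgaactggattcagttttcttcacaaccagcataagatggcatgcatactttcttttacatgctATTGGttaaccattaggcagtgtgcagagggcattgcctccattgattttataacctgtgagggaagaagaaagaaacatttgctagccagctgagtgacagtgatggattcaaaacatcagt
AKR1C4: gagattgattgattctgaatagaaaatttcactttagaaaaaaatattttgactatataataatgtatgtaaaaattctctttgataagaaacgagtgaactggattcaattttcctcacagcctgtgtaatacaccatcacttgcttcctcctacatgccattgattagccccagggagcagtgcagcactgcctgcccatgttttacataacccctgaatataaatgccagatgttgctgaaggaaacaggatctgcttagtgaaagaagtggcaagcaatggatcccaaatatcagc
AKR1D1: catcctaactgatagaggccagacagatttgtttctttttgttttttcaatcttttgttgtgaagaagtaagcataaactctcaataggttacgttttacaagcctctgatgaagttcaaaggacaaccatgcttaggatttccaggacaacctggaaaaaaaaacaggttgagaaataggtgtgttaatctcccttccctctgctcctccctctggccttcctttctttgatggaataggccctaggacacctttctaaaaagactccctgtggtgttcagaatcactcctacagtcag
AKR7A2: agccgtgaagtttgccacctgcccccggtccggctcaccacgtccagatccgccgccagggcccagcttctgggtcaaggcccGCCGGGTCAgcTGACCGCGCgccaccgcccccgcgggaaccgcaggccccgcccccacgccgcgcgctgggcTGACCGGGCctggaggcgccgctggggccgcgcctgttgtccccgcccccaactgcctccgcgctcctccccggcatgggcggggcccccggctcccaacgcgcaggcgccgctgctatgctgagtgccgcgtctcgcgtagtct

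In an alignment of the AKR1C1 and AKR1C2 windows, 288 of 292 aligned bases were identical (98.6%). Identity of the AKR1C1 window was 78.0% to the printed AKR1C3 window and 69.6% to that of AKR1C4. The CCAAT box was found in 4 of the 9 members, AKR1B1 and 3 AKR1C genes, and in 34.6% of all 35116 windows. It stood 77 bases before the start in AKR1C1, 81 in AKR1C2, 73 in the printed AKR1C3 window and 86 in the unprinted one. It was read on the other strand in each, and the AKR1C4 window held no match.

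The stricter ARE core, TGACNNNGC, was found in the windows of 1 of the 9 members, AKR7A2, with 3 matches, and in 13.3% of all windows. The looser core TGANNNNGC, which fixes fewer bases and includes the stricter one, was found in AKR1C1, AKR1C2, AKR7A2 and AKR7A3 and in 41.8% of all windows. The core bound by the aryl hydrocarbon receptor, GCGTG, was found in AKR1B1, AKR7A2 and AKR7A3 and in 36.5% of all windows. The AP-1-like motif TGANTCA was in none of the member windows and in 7.71% of all. The CCAAT box, the aryl hydrocarbon receptor core and the AP-1-like motif were searched after the sequences had been seen. A member was counted if any of its windows held a match, while the shares over all are per window. A match is only a run of letters, and elements outside these short windows were not examined.

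With Padma 28, AKR1B10 and the AKR1C1, AKR1C2 and AKR1C3 genes were higher. The differences of AKR7A2, AKR7A3 and AKR1D1 were small, above 0 for the AKR7A genes and below 0 for AKR1D1. Of the 17 probe sets, 13 were well above background on both arrays and 4 were below it on both. Of the 13, 12 had a difference above 0, against 53% of all probe sets above background on both arrays. More than 2-fold higher were 6 of the 17, among all probe sets 0.646%, and more than 4-fold higher were 3, among all probe sets 0.064%. Apart from that of AKR1B10, all of these were probe sets of AKR1C1 and AKR1C2, which may share signal and are not independent. None of the 17 was more than 2-fold lower, where 0.412% of all probe sets were. The 4 below background had values of 2.10 to 3.30. The median difference was 0.38 over the 17 and 0.99 over the 13 above background, while it was -0.025 over all probe sets and 0.019 over the 21502 above background on both arrays.

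Represented by the brightest probe set of its own, AKR1B10 and AKR1C2 were more than 2-fold higher, so 2 of 8 genes passed where 0.875% of all genes did, and only AKR1B10 passed 4-fold, as 0.086% of all genes did. None of the 8 was more than 2-fold lower, where 0.384% of all genes were. The median over the 8 genes was 0.63, against -0.022 over all genes. The members nearest to the 2-fold limit were probe sets of the same pair of genes, one of AKR1C2 at 1.03 just past it and one of AKR1C1 at 0.99 just short of it. The AKR1C1 call turned with the setting, at 1.02 when differences were centred on the median of all probe sets and 2.36 with its probe set of largest difference.

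**Figure D1:**
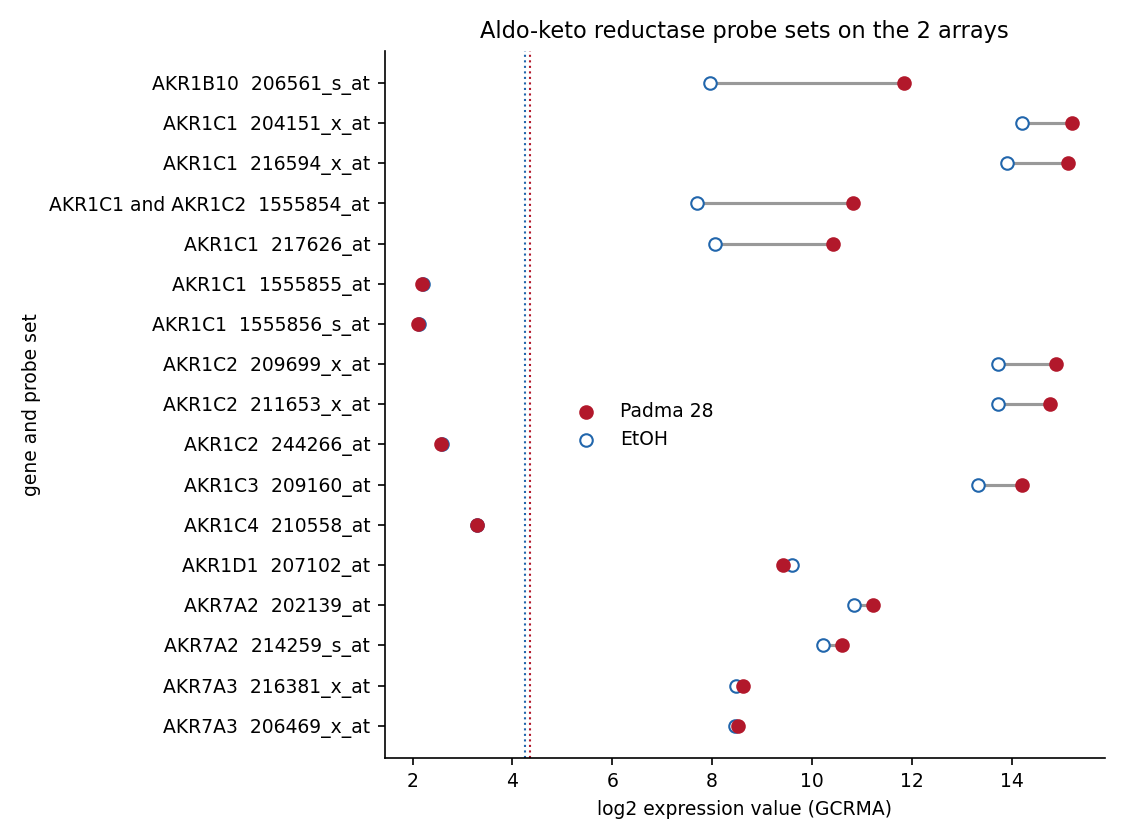
Log2 expression value (horizontal axis) of each of the 17 probe sets of the 8 measured members (vertical axis), with 1 array per treatment, filled red for Padma 28 and open blue for EtOH; the background limits, 4.35 and 4.25, are dotted. The 4 probe sets left of the limits have both values on top of each other, and AKR1B10 and 2 probe sets of AKR1C1 and AKR1C2 have the longest lines.

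AKR1B10, which is found in the intestine and in liver tumours, had the largest difference of the family. Its single probe set, 206561_s_at, is of the type that matches several transcripts. Signal shared with its neighbour AKR1B15, which had no probe set named in the annotation, was not examined. 206561_s_at had a log2 value of 11.84 with Padma 28 and 7.96 with EtOH, both well above background. The log2 difference was 3.88, which is 14.7-fold higher and in position 7 among the rises of all probe sets. The 6 probe sets with larger fitted differences, among them 1 each of PTGR1 and SLC7A11, were all below background with EtOH. With each gene taken at its brightest probe set, AKR1B10 had the largest rise of the 10186 genes above background on both arrays, followed by ASNS (asparagine synthetase) at 3.35, SLC7A11 (a cystine transporter) at 3.21 and CYP24A1 (a vitamin D hydroxylase) at 3.07. When genes above background on only 1 array were included, 3 had larger fitted differences, all of them below background with EtOH, so that their rises are lower limits. CYP1A1, which oxidises polycyclic hydrocarbons, was at least 290-fold higher, NMRAL2P, a pseudogene, at least 7.68-fold and KLHDC7B at least 10.6-fold, measured against the EtOH limit. For the last pair the limit is below the rise of AKR1B10. These 6 genes are named only for their place in the order of differences over 2 arrays.

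AKR1C1, which inactivates progesterone, and AKR1C2, which reduces dihydrotestosterone and binds bile acids, are nearly the same in sequence, and probe sets of the _x_at type may take signal from both. Of the 9 probe sets annotated to one or both, 6 were above background. Of these 6, 4 were of the _x_at type. For AKR1C1, 204151_x_at was at 15.21 with Padma 28 and 14.22 with EtOH, and 216594_x_at was at 15.12 with Padma 28 and 13.91 with EtOH. For AKR1C2, 209699_x_at was at 14.90 with Padma 28 and 13.72 with EtOH, and 211653_x_at was at 14.76 with Padma 28 and 13.73 with EtOH. Their differences ran from 0.99 to 1.21, that is 1.99-fold to 2.32-fold higher. Among the 753 probe sets with a mean value of 13 or more, a limit set after the values were seen, 0.664% (5) were more than 2-fold higher. They were 1 of AKR1C1 and 2 of AKR1C2 from those just given, 1 of NQO1 and 1 of MGST1.

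The other 2 probe sets above background showed larger rises. 217626_at of AKR1C1 was at 10.42 with Padma 28 and 8.06 with EtOH, a difference of 2.36 or 5.15-fold. 1555854_at, shared by AKR1C1 and AKR1C2, was at 10.83 with Padma 28 and 7.69 with EtOH, a difference of 3.14 or 8.79-fold, and in position 11 among the rises of all probe sets. The 3 probe sets of AKR1C1 alone that were above background thus spanned 1.37 log2 units between the smallest and the largest difference. Over 2067 genes with 3 or more such probe sets the median span was 0.33, and 1.11% (23 genes) had a span as large as that of AKR1C1. The direction was the same on all 6 probe sets, while the size of the rise depended on the probe set, between 1.99-fold and 8.79-fold.

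The remaining 3 probe sets of this pair, 1555855_at and 1555856_s_at of AKR1C1 and 244266_at of AKR1C2, were below background on both arrays, so their differences of -0.026, -0.025 and -0.021 carry no fold change. The AKR1C2 rise thus rests on probe sets of the _x_at type and on the shared one.

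AKR1C3, which makes testosterone from androstenedione and is also a prostaglandin F synthase, had 1 probe set, 209160_at. Its value was 14.20 with Padma 28 and 13.32 with EtOH, a difference of 0.88 or 1.85-fold, short of 2-fold. Of the probe sets above background on both arrays, the middle 95% lay between -0.69 and 0.79, so AKR1C3 was beyond that range.

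**Figure D2:**
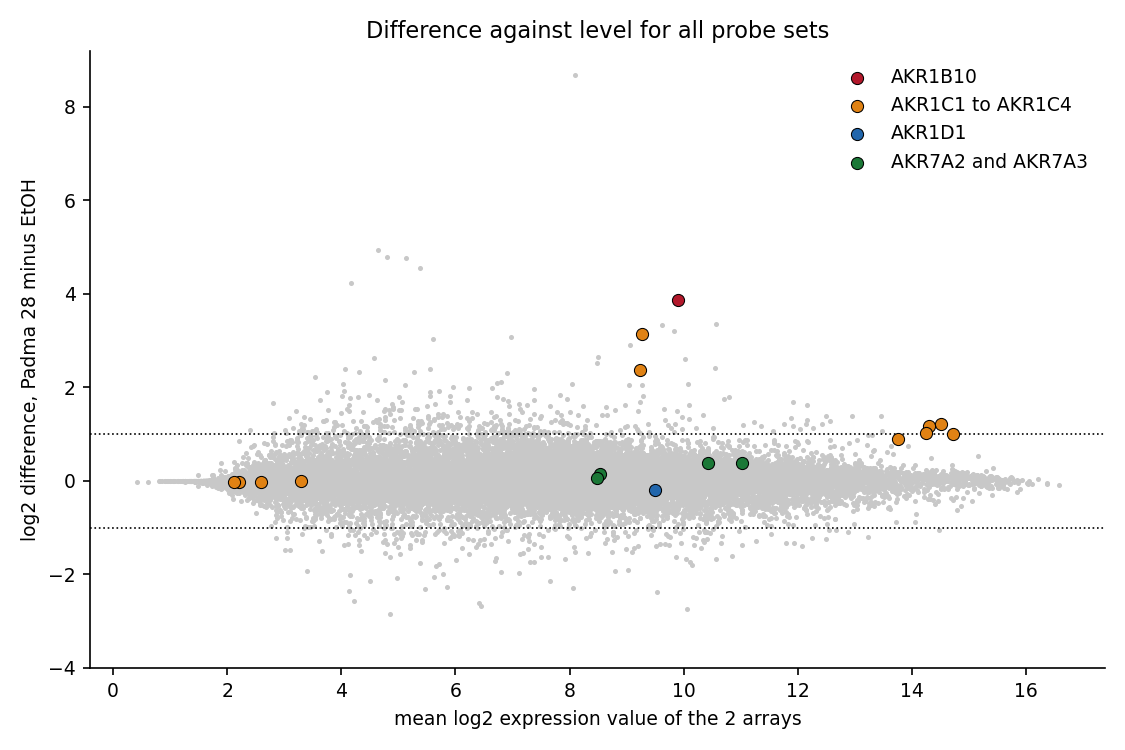
Log2 difference, Padma 28 minus EtOH (vertical axis), against the mean log2 value of both arrays (horizontal axis) for all 54675 probe sets, grey, with the 17 AKR probe sets in colour and dotted lines at 2-fold. The 5 bright AKR1C probe sets lie at the upper edge of the narrow right end, AKR1B10 and the other 2 AKR1C probe sets lie far above it in the middle, and the AKR7A and AKR1D1 points lie within the bulk.

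AKR1C4, the liver form that follows AKR1D1 in bile acid synthesis, was below background on both arrays. Its probe set 210558_at was at 3.30 with Padma 28 and 3.29 with EtOH, so no fold change is given. AKR1D1 reduces the double bond in the first ring of bile acid precursors and of steroid hormones. Its probe set 207102_at was at 9.41 with Padma 28 and 9.60 with EtOH. The difference of -0.19 was the only one below 0 among the members above background, and it lay within the range of the middle 95%.

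Along chromosome 10 the order of the genes in RefSeq is AKR1E2, the pseudogene AKR1C6P, AKR1C1, AKR1C2, AKR1C3, AKR1C8 and AKR1C4. The 3 genes in the middle were above background and higher with Padma 28, AKR1C2 only on probe sets that may share signal with AKR1C1. AKR1E2 and AKR1C6P on one side and AKR1C4 on the other were below background on both arrays, and AKR1C8 had no probe set named in the annotation.

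**Figure D3:**
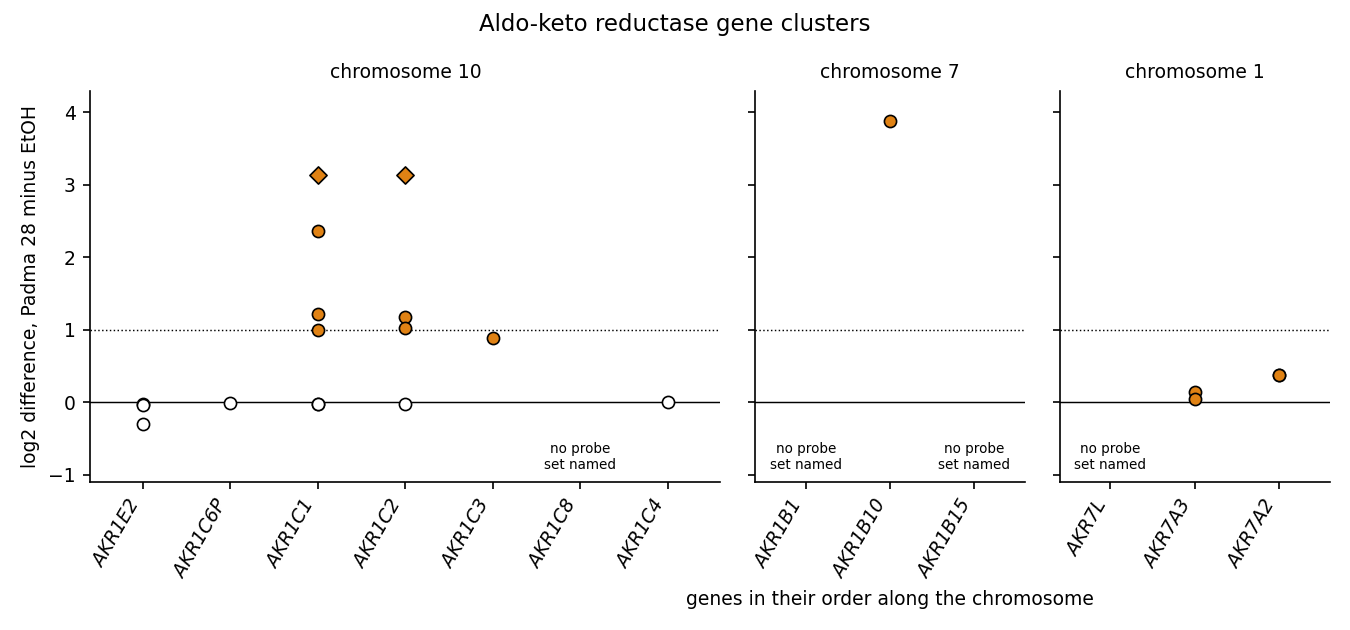
Log2 difference, Padma 28 minus EtOH (vertical axis), of each probe set of the AKR genes in their order along chromosomes 10, 7 and 1 (horizontal axis, not to scale), from 1 array per treatment. Filled symbols are above background on both arrays and open symbols below on both. Diamonds are the probe set shared by AKR1C1 and AKR1C2, and the dotted line marks 2-fold. The rises on chromosome 10 are on probe sets annotated to AKR1C1, AKR1C2 and AKR1C3, and those of AKR1C1 and AKR1C2 may share signal.

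AKR7A2, which reduces succinic semialdehyde as well as aflatoxin dialdehyde, was slightly higher on both of its probe sets. 202139_at was at 11.22 with Padma 28 and 10.84 with EtOH, and 214259_s_at was at 10.61 with Padma 28 and 10.23 with EtOH. Their differences of 0.38 and 0.38, about 1.30-fold, differed from each other by 0.0059 only. Both lay within the range of the middle 95%.

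AKR7A3, its neighbour on chromosome 1, had smaller differences. Both of its probe sets are of the _x_at type and may take signal from other genes, which was not examined. 216381_x_at was at 8.61 with Padma 28 and 8.47 with EtOH, a difference of 0.14. 206469_x_at was at 8.51 with Padma 28 and 8.46 with EtOH, a difference of 0.053. For scale, in 4912 genes with at least 2 probe sets above background the differences of the brightest 2 lay a median of 0.142 apart, and neither AKR7A3 difference was larger than that.

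The related lists, enzymes that share substrates or reactions with the AKR members, are described with each gene at its brightest probe set, and differences between the lists were not tested. Of 12 carbonyl and quinone reductases measured outside the family, 11 were above background, 8 of these had a difference above 0 (53% of all probe sets above background on both arrays did), and the median over the 12 was 0.36. More than 2-fold higher were 2 of the 12, where 0.875% of all genes were. None was more than 2-fold lower, where 0.384% of all genes were. The prostaglandin reductase PTGR1 was at 11.75 with Padma 28 and 9.33 with EtOH, a difference of 2.42 on its brightest probe set. On its other 2 probe sets PTGR1 was higher by 2.90, and by at least 9.68-fold where the EtOH value was below background. The quinone reductase NQO1 was at 14.16 with Padma 28 and 12.77 with EtOH, a difference of 1.38, and its other 2 probe sets were at 1.61 and 1.69. Of the further genes, all given as log2 differences here and below, the quinone oxidoreductase CRYZ was at 0.51, the dehydrogenases DHRS7 and DHRS2 at 0.21 and -0.18 and the dicarbonyl reductase DCXR at 0.19.

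Of 21 steroid enzymes none passed 2-fold in either direction on its brightest probe set, and the median was -0.027, or -0.089 over the 15 above background. Of all genes, 0.875% were more than 2-fold higher and 0.384% more than 2-fold lower. A count of none in a list of this size is therefore no contrast with other genes. The dehydrogenases HSD17B11 and HSD17B12 were at -0.15 and -0.28, the steroid sulfotransferase SULT2A1 at -0.17 and the sterol hydroxylase CYP27A1 at 0.12. Past 2-fold were 2 dimmer probe sets, one of HSD17B12 at 4.53 with Padma 28 and 5.64 with EtOH, a difference of -1.11, and one of SRD5A1 at 1.68. The extremes by brightest probe set, named after their values were seen, were SRD5A1 at 0.90, a steroid reductase whose product differs from that of AKR1D1 in the configuration of one hydrogen, and CYP7A1 at -0.96, the rate-limiting enzyme of bile acid synthesis.

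Of 6 enzymes of the polyol pathway and of methylglyoxal removal none passed 2-fold, with a median of -0.053. Of all genes, 0.875% were more than 2-fold higher and 0.384% more than 2-fold lower, so this count too is no contrast. Glyoxalase GLO1 was at 0.29, PARK7 at 0.084, the ketohexokinase KHK at -0.18 and the triokinase TKFC at -0.47. Of 14 genes of retinaldehyde metabolism 1 was more than 2-fold higher, where 0.875% of all genes were. It was ALDH1A1, which oxidises retinaldehyde, with a level of 13.21 under Padma 28 and 11.92 under EtOH and a difference of 1.29. None was more than 2-fold lower, where 0.384% of all genes were, and the median was -0.030. The retinol dehydrogenases RDH11 and RDH10 were at -0.28 and -0.14, the retinol saturase RETSAT at 0.083 and the retinol carrier RBP4 at 0.051. Of 4 other genes of the superfamily, KCNAB2, a subunit of potassium channels, was at -0.0081 and the other 3 were below background on both arrays.

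**Figure D4:**
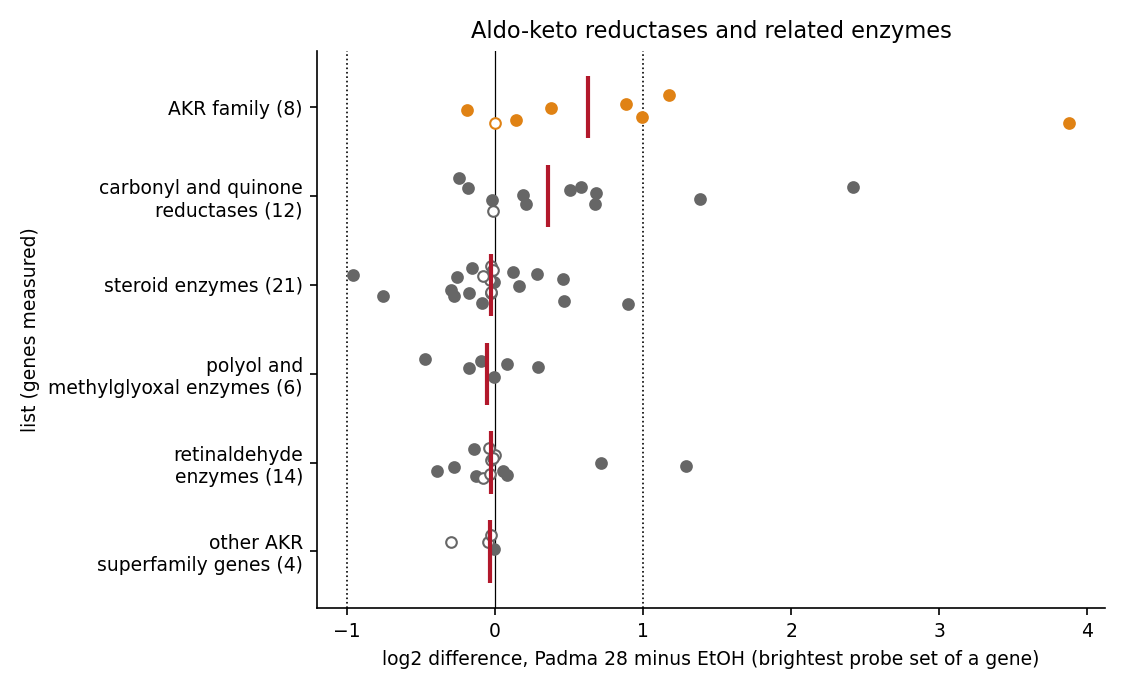
Log2 difference, Padma 28 minus EtOH (horizontal axis), of the brightest probe set of each gene in the AKR family and in 5 related lists (vertical axis, genes measured in brackets), from 1 array per treatment. Genes below background on both arrays are open, medians are red bars, and 2-fold is dotted; the AKR median is 0.63, and AKR1B10 is the point farthest to the right.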

How the data were processed

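Transcript levels in HepG2 cells were measured on U133 Plus 2.0 human arrays from Affymetrix, 1 for Padma 28 and 1 for EtOH, each with RNA from 3 pooled cultures. The authors deposited log2 expression values for 54675 probe sets, made by GCRMA, which models background from the GC content of the probes, normalizes by quantiles and summarizes by median polish. GCRMA 2.28.0 and R 2.15.1 are given in the submitters' notes, later versions than in the study's methods. Quantile normalization makes the arrays alike in distribution, so a shift of all genes would not be seen, and the filter of the study's methods was not applied.

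Padma 28 minus EtOH was taken per probe set, and a gene was represented by its own probe set with the highest mean. Genes were named from the platform annotation, in which 41097 probe sets have 1 gene, 1801 several and 11777 none. Of 19777 Entrez identifiers, 19735 were found in RefSeq and all of these kept their symbol. The most frequent value was found in bins of 0.1. The 18 hybridisation spike-ins differed by -0.15 to 0.10.

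Named were all members, each related gene past 2-fold with up to 4 further genes of highest mean per list, and the 3 genes next above and below AKR1B10. The members and lists were chosen with earlier results of these data known. Promoter windows were aligned with Biopython 1.88 (global, end gaps free), and identity is over aligned pairs of bases. Of these steps, only the choice of a gene's brightest probe set and its difference were tested on simulated data with added log2 shifts. Scripts ran in Python 3.11.15 (matplotlib 3.10.9, statsmodels 0.14.6, pandas 2.3.3, numpy 2.4.6), and 11 alternatives were tried. The number of arrays limits the precision.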

Additional observations from a re-analysis of the deposited data

How the results depend on the processing

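The gene counts, their median and the single-gene differences of the members were recomputed under 11 alternatives, where a probe set remained. The probe set counts were recomputed under those that leave the choice of a gene's probe set alone, and the related lists under none. No member was more than 2-fold lower in any of these. Without _x_at and _s_at probe sets, which leaves 8 probe sets of 6 genes and removes AKR1B10 and AKR7A3, 2 probe sets and 1 gene, AKR1C1 at 2.36, were more than 2-fold higher. There the median of the genes was 0.19, and AKR1C2 was left with a probe set below background at -0.021. Filters at 2 or 3 log2 units above the most frequent value removed AKR1C4 and gave a median of 0.88. With the probe set of largest difference 3 genes were more than 2-fold higher, AKR1C1 now among them, and 2 genes were more than 4-fold higher, AKR1B10 and AKR1C1, and the median over its probe sets put AKR1C2 at 1.03. Centring on the median put AKR1C1 at 1.02, so that 3 genes and 7 probe sets were more than 2-fold higher. With 64 added on the linear scale AKR1B10 was at 3.57. Of the 84 recomputed single-gene differences, 79 shifted by less than 0.142, the median gap between the 2 brightest probe sets of a gene. Of the rest, 4 moved by more and 1 reversed, that of AKR1C2 without _x_at and _s_at probe sets. Many of the 84 could not shift. The filters left the value of each remaining gene unchanged, and a gene with 1 probe set keeps it under any choice of probe set. The tally is therefore no measure of robustness. With the looser ARE core 4 members held a match in place of 1. No paired analysis was possible because each treatment has 1 array. No interval could be given.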

Other observations

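The genes next to the AKR clusters were looked at after the AKR values had been seen. On chromosome 7, SLC35B4, a sugar nucleotide transporter beside AKR1B1, was at 8.76 with Padma 28 and 8.98 with EtOH, and CALD1, the cytoskeletal protein caldesmon, on the other side of AKR1B10 and AKR1B15, was at 12.04 with Padma 28 and 12.25 with EtOH. Their differences were -0.21 and -0.20. BPGM, which lies between, was below background on both arrays. On chromosome 10 the transcription factor gene KLF6, the nearest measured gene before AKR1E2, was at 10.93 on both arrays. On chromosome 1 SLC66A1, a lysosomal amino acid transporter and the measured gene nearest to AKR7A2 on one side, was at 8.49 with Padma 28 and 7.76 with EtOH, a difference of 0.73 beside 0.38 in AKR7A2. Beyond it CAPZB was at a difference of 0.086. On the other side of the cluster MRTO4 was at 0.10, EMC1 at -0.20 and UBR4 at 0.26.

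SRD5A1, singled out after its values were seen, had probe sets whose differences spanned 1.69 log2 units, beside 1.37 in AKR1C1. Its brightest probe set, 210959_s_at, was at 6.72 with Padma 28 and 5.82 with EtOH. 204675_at was at 6.74 with Padma 28 and 5.06 with EtOH, a difference of 1.68, and 211056_s_at was at 5.07 with Padma 28 and 5.08 with EtOH. All 3 were above background on both arrays. With 1 array per treatment these values carry no test.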
